A study of Homo sapiens with 32 samples.

Results

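The 44 genes described here are interferon-stimulated genes, taken by gene symbol from the 23073 genes of the deposited expression table. All 44 were kept whatever their values, but they were chosen with earlier results of these data known. They were followed in 2 human acute myeloid leukaemia cell lines with the t(8;21) translocation, Kasumi-1 and SKNO-1, under inhibitors of KDM1A. The tested agents were RN-1, an irreversible KDM1A inhibitor, and GSK690, a reversible one. The controls were GSK690*, an inactive isomer of GSK690, and the solvent DMSO. Compounds were given at 1 µM in 0.1% DMSO and RNA was sequenced after 24 h or 72 h, with 2 libraries per line, agent and time, so that 32 libraries fall into 16 groups. No group received interferon and none had a changed genotype. Kasumi-1 cells grew in 20% serum, and SKNO-1 cells in 10% serum with 10 ng/mL of the cytokine GM-CSF, so line and medium cannot be told apart. The labels call the 2 libraries of a group biological replicates and do not say how their cultures were kept apart, so the p-values measure the spread between these libraries. The fits estimate that spread once per gene over all 16 groups. The later SKNO-1 time is 72 h by title, whereas the protocol speaks of 4 days.

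Interferons of type I bind a receptor pair on the cell surface, and the receptor kinases JAK1 and TYK2 then act on STAT2. It takes part with IRF9 in a factor called ISGF3, which binds a DNA element, the interferon-stimulated response element (ISRE), beside the genes it switches on. Their products sense viral nucleic acid, block entry, translation and assembly of viruses, or tune the response itself, and many are also read at a low level in cells given no interferon. KDM1A, the target of the compounds, is a histone demethylase that works in repressor complexes with CoREST and with the transcription factors GFI1 and GFI1B.

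The promoter sequences show this element. Of the 44 genes, 37 were found in the RefSeq promoter table (build GRCh38.p14), in 52 windows of 250 bases before to 50 bases after a transcription start; IFIT2, OAS2, OASL, MX2, USP18, IFITM2 and TRIM22 were not matched. The core letters TTTCNNTTTC, searched on both strands (GAAANNGAAA on the other) with overlapping matches counted separately, were in 59.6% of these windows (31 of 52), against 3.57% of all 35116 windows in the table. By gene, 26 of the 37 held a match. The GFI1 core AATCAC, also searched on both strands, was in 7.69% of the members' windows and 10.2% of all windows. Below are the windows of HERC5, BST2 and PARP14, which rose with the inhibitors, and of IFI6, which differed most between replicate libraries, each 5′ to 3′ along the gene with the ISRE matches in capitals.
HERC5 (chr4:88456869-88457168, plus strand): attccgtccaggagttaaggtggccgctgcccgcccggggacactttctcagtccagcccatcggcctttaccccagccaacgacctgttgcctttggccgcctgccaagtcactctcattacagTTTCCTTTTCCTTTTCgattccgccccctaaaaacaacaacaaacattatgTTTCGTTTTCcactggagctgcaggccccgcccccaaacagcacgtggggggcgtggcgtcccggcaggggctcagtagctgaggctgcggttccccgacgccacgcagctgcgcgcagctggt
BST2 (chr19:17405581-17405880, minus strand): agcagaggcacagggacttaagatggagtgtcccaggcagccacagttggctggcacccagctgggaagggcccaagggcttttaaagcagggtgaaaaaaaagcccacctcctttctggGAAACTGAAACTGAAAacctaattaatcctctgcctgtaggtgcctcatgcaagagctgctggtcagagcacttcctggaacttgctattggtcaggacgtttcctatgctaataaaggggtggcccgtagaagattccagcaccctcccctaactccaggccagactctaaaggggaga
PARP14 (chr3:122680589-122680888, plus strand): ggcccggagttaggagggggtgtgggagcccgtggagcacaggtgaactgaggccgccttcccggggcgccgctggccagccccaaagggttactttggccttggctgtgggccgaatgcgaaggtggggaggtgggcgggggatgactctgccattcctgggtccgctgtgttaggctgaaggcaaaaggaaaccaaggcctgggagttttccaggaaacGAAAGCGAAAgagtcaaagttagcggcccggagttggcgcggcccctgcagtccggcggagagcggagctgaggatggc
IFI6 (chr1:27672143-27672442, minus strand): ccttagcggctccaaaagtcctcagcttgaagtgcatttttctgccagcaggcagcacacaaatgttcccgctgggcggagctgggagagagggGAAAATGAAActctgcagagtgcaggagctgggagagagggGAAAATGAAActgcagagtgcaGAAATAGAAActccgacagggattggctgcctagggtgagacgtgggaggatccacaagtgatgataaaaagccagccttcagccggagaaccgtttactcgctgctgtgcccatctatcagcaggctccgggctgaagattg
HERC5 held 3 matches, at 125, 119 and 74 bases before the start, of which the first pair overlap. BST2 held 2 overlapping matches, PARP14 held 1, at 29 bases before the start, and IFI6 held 3. IFI16, OAS1 and DDX58 (listed as RIGI) had no match in their windows, which says only that these letters are absent there. Of the 12 matched genes that rose with the inhibitors in at least 1 line and time, 6 held an ISRE match, and of the 23 that were tested and rose in none, 18 did.

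Levels are given in FPKM, read fragments scaled to transcript length and library size, so they can be set beside each other between genes. Of the 44 genes, 42 reached 1 FPKM in at least 2 libraries and were tested. EPSTI1 and IFI27 did not, with highest values of 0.408 and 0.788 FPKM. FPKM sums per library lay between 332648 and 395945, and the values as deposited do not give the read depth. Replicate libraries of a group correlated at 0.986 to 0.996 across genes. The deposited sample sheet names the other cell line for all 16 libraries at 72 h. Grouped by their titles, as done here, these libraries correlated at 0.974 to 0.986 on average with the 24 h libraries of their own line and at 0.848 to 0.870 with those of the other line. KDM1A itself has no value in 15 of the 32 libraries, and lay between 60.9 and 79.8 FPKM in inhibitor libraries and between 68.7 and 85.1 FPKM in control libraries that have one. Several members lie beside a close relative or overlap one (the IFIT, OAS, MX, IFITM, HERC, SAMD9 and IFI44 clusters; TRIM22 within the span annotated for TRIM5; IFITM1 within that of IFITM2; the ends of CMPK2 and RSAD2), so the sharing of reads between them is uncertain.

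In Kasumi-1 cells at 24 h the replicate 2 libraries stood apart from the replicate 1 libraries in these genes, in inhibitors and controls alike. IFI6, a mitochondrial and reticulum protein with antiviral activity, was at 22.5 and 177 FPKM in the RN-1 libraries of replicates 1 and 2, and at 20.6 and 151 FPKM in the GSK690 libraries, against 23.8 and 162 FPKM with GSK690* and 18.8 and 122 FPKM with DMSO. All 4 replicate 2 libraries were above all 4 replicate 1 libraries, whatever the agent. MX1, a GTPase that traps viral capsids and polymerases, was at 2.04 and 17.0 FPKM with RN-1 and 0.827 and 11.1 FPKM with GSK690, against 3.03 and 10.1 FPKM with GSK690* and 0.991 and 4.74 FPKM with DMSO. OAS2, which makes the messenger that activates RNase L, was at 2.37 and 17.8 FPKM with RN-1 and 2.42 and 14.8 FPKM with GSK690, against 3.39 and 9.21 FPKM with GSK690* and 1.51 and 5.42 FPKM with DMSO. For both genes too, the replicate number parted the libraries and the agents overlapped.

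A fit with the replicate number as a term, added after these values were seen, gave the size of that difference. Its p-values set the difference against the spread left after the group and replicate terms, with 1 library per agent under each number. They do not measure how far separate replicate sets would differ, and what the numbers mark is not stated. Replicate 2 was higher by 2.77 ± 0.13 (SE) on the log2(FPKM + 1) scale for IFI6 (limma adjusted p = 7.59e-10), by 2.07 ± 0.17 for MX1 (adjusted p = 2.02e-06) and by 1.81 ± 0.15 for OAS2 (adjusted p = 2.1e-06). Of the 42 members tested, 32 were higher in replicate 2 and 0 lower, where 0.866% of all 11890 genes tested were higher and 0.631% lower. XAF1, OAS1, OAS3, IFI44L, IFI44, IFITM1, ISG15, USP18, PARP9 and IFIT1 followed, with differences between 1.54 and 1.01. HERC5 (-0.18), TRIM21 (0.06), IFI16 (0.12), ADAR (0.17) and TRIM5 (0.19) were among the 10 members that did not pass, the others being IFITM2, ISG20, IFITM3, BST2 and EIF2AK2. In 27 of 42 members every replicate 2 library was above every replicate 1 library, which held for 2.06% of genes. Summed over all 44 members, the Kasumi-1 replicate 1 libraries at 24 h held 706 and 671 FPKM with RN-1 and GSK690, against 651 and 640.2 FPKM with GSK690* and DMSO; the replicate 2 libraries held 1222 and 1107 FPKM, against 1029.7 and 873 FPKM.

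The other line and time sets showed no such split. In Kasumi-1 at 72 h, 1 member was higher in replicate 2 and 1 lower, STAT2 (0.23) and OAS1 (-0.45), against 1.86% and 2.51% of genes. In SKNO-1 at 24 h, 0 were higher and 3 lower (CMPK2, RSAD2 and BST2), against 2.25% and 6.5% of genes. In SKNO-1 at 72 h, 8 were higher and 2 lower, against 12.1% and 8.33% of genes; BST2 led the higher ones at 0.68 ± 0.11 and CMPK2 the lower ones at -0.83 ± 0.09. Among genes outside the 44, chosen after their values were seen, the signalling genes IRF7 (1.30), IRF9 (1.14) and DHX58 (0.86) were also higher in replicate 2 of Kasumi-1 at 24 h. Results of this set are therefore given over all 8 libraries and also within replicate numbers.

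**Figure D1:**
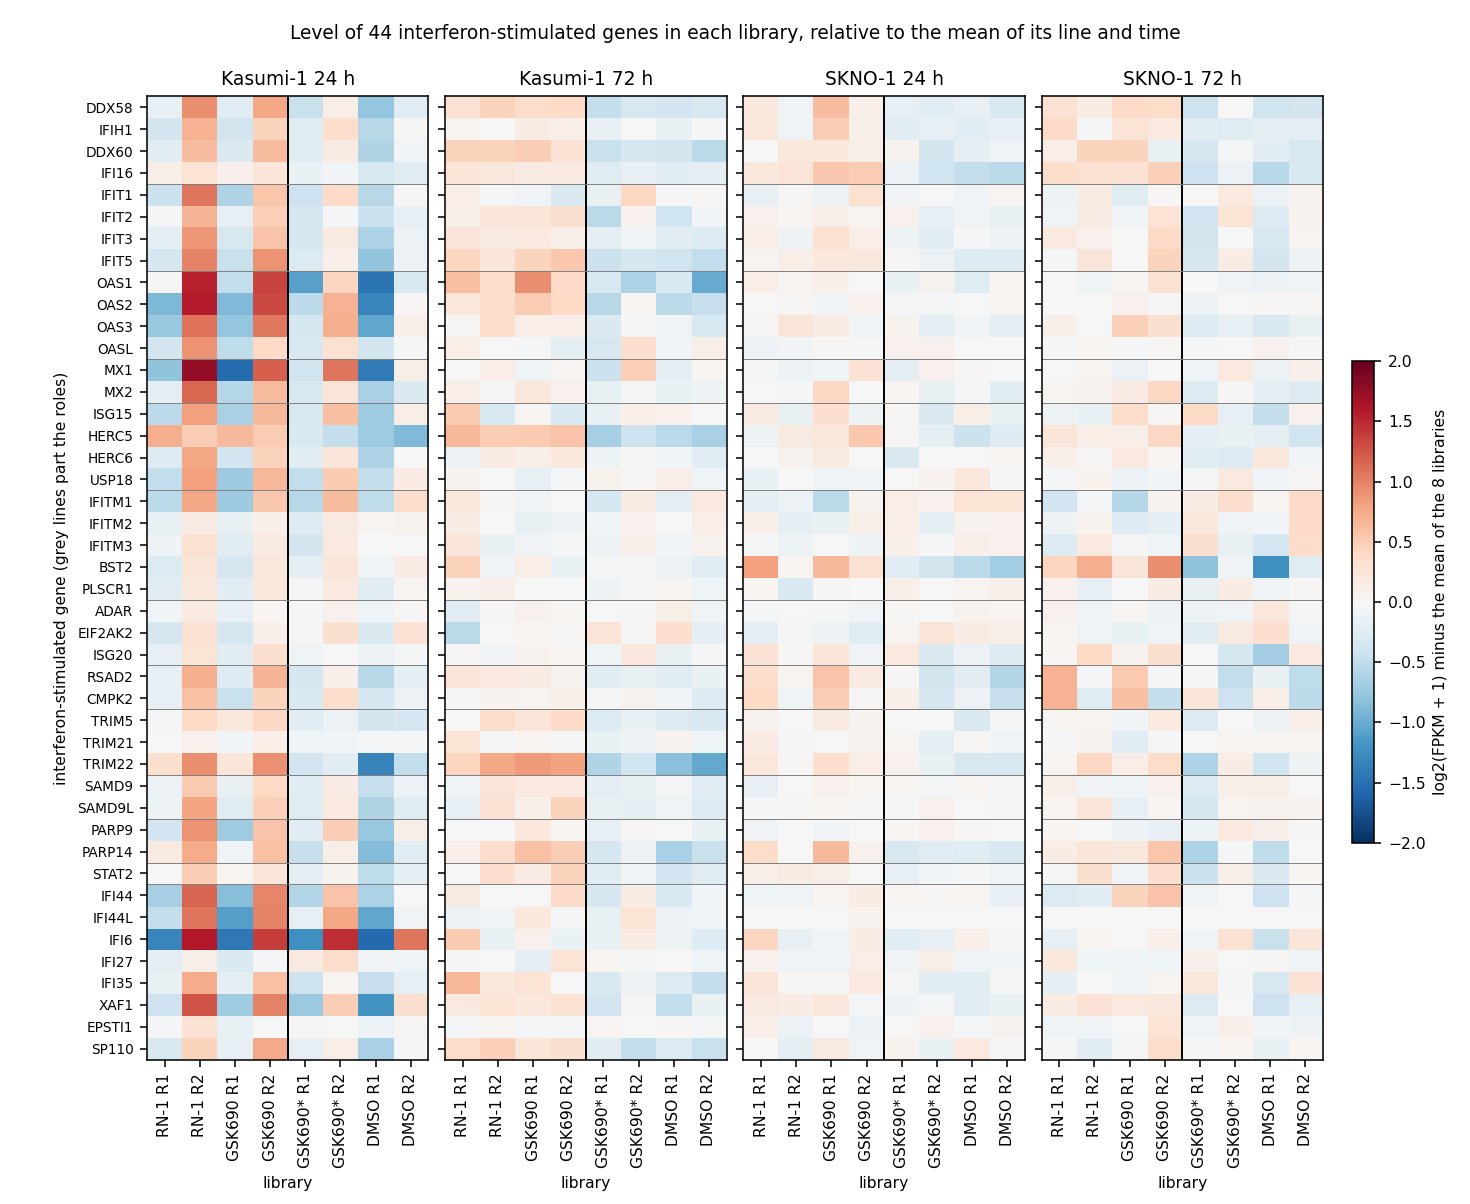
Level of the 44 genes in each library, as log2(FPKM + 1) minus the mean of the 8 libraries of that line and time. Rows are genes grouped by role, columns are the 2 replicates of RN-1, GSK690, GSK690* and DMSO in each set; in Kasumi-1 at 24 h the columns alternate by replicate number for most genes, while HERC5, TRIM22 and IFI16 part by agent.

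RN-1 and GSK690 together were set against GSK690* and DMSO together in each line and time, 4 libraries against 4. In Kasumi-1 at 24 h, 8 of the 42 members were higher with the inhibitors and 0 lower: HERC5, TRIM22, OAS1, PARP14, DDX58, TRIM5, STAT2 and IFI16. Over all genes tested, 9.69% were higher and 20.9% changed in either direction. In Kasumi-1 at 72 h, 12 members were higher and 0 lower, where 13.0% of all genes were higher and 25.7% changed; these were the same 8 with DDX60, IFIT5, SP110 and IFI35. In SKNO-1 at 24 h, 3 were higher and 0 lower (BST2, IFI16 and HERC5), where 5.64% of genes were higher, 3.44% lower and 9.08% changed. In SKNO-1 at 72 h, 4 were higher and 0 lower (the same 3 and PARP14), where 6.91% of genes were higher, 4.16% lower and 11.1% changed. In all, 13 members rose in at least 1 set, HERC5 and IFI16 rose in all 4, PARP14 in 3, and 29 in none. The share of all genes was not taken for these counts over sets, so they cannot be read as a trait of the members.

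The median change of the 42 members was 0.32 in Kasumi-1 at 24 h, 0.23 in Kasumi-1 at 72 h, 0.14 in SKNO-1 at 24 h and 0.12 in SKNO-1 at 72 h, on the log2(FPKM + 1) scale. Over all genes tested the median lay between -0.01 and -0.02. A change above 0 was seen in 39, 34, 30 and 28 of the 42 members. In Kasumi-1 at 24 h the median differed with the pair of agents, at 0.57 for RN-1 against DMSO, 0.08 for GSK690 against GSK690*, with 26 of 42 above 0, and 0.29 for GSK690* against DMSO, comparisons that in part share libraries. In cultures measured in bulk, fewer cells of a type and less RNA per cell cannot be told apart.

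Same-numbered libraries deviated together in Kasumi-1 at 24 h and in SKNO-1 at both times, and a fit with the replicate number as a block therefore stands beside the first. In the first fit the replicate difference of Kasumi-1 at 24 h enters the standard errors of every set. In the 72 h comparison of controls between lines, the standard error of OAS1 was 0.357 without the block and 0.103 with it. That of HERC5 was 0.0996 and 0.0907. With the block, 21 members were higher and 0 lower in Kasumi-1 at 24 h (14.2% of genes higher), 11 higher and 1 lower in SKNO-1 at 24 h (10.1% higher, 9.32% lower), and 15 higher and 1 lower in SKNO-1 at 72 h (11.6% higher, 11.2% lower). The lower one was IFITM1 in both SKNO-1 sets. For Kasumi-1 at 24 h the block added IFIT2, IFIT3, IFIT5, DDX60, OAS2, MX2, HERC6, RSAD2, SAMD9, SAMD9L, IFI35, XAF1 and SP110, with changes between 0.30 and 0.56. In SKNO-1 it added STAT2, XAF1, TRIM22, IFIH1, CMPK2, DDX58 and RSAD2 at both times, PARP14 at 24 h, and IFIT3, ISG20, DDX60 and OAS3 at 72 h.

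**Figure D2:**
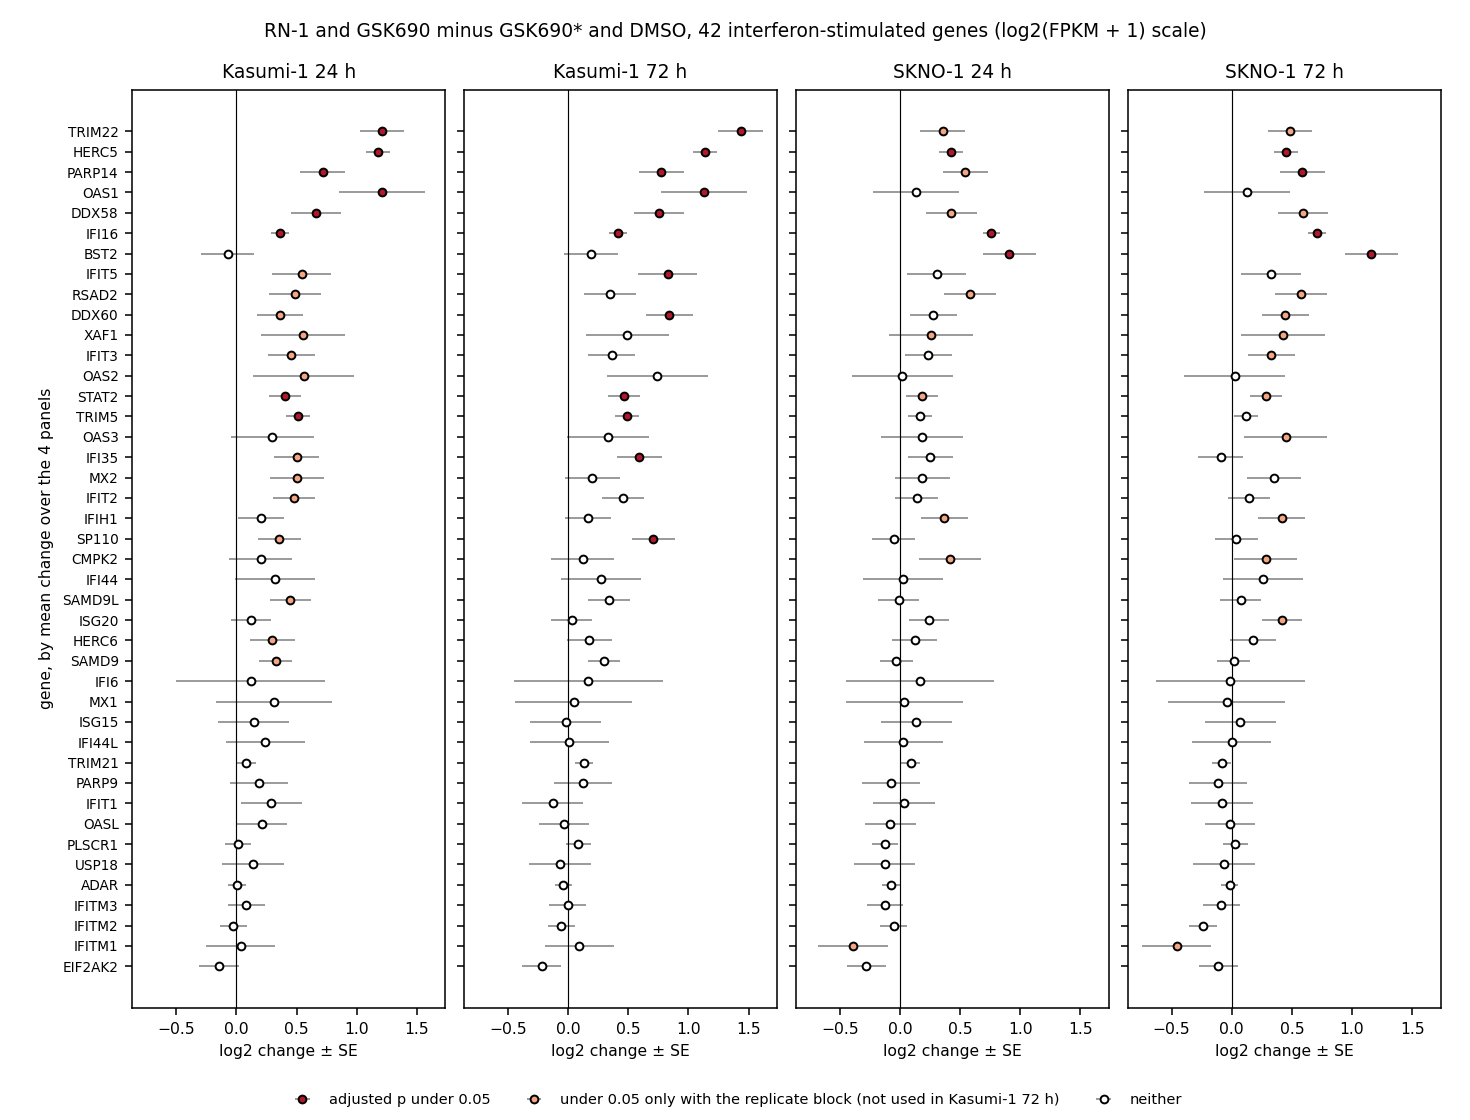
Log2 change of 42 interferon-stimulated genes, RN-1 and GSK690 minus GSK690* and DMSO, with its standard error, in the 4 line and time sets (4 libraries against 4 in each). Dark red points passed an adjusted p of 0.05, orange points passed only with the replicate block; OAS1, TRIM22 and HERC5 lie furthest right in the Kasumi-1 panels and BST2 in the SKNO-1 panels.

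Among the ISG15 system genes, HERC5, the ligase that couples the ubiquitin-like protein ISG15 to other proteins, rose in every set. In Kasumi-1 at 24 h it was at 14.5, 12.2, 13.7 and 12.3 FPKM with RN-1 and GSK690 (13.1 ± 1.11, mean ± SD, n = 4), against 6.63, 5.75, 4.76 and 4.09 FPKM with GSK690* and DMSO (5.31 ± 1.11, n = 4). The 72 h values were 8.61, 7.59, 7.74 and 7.97 FPKM (7.98 ± 0.448) with the inhibitors, against 2.80, 3.54, 3.16 and 2.87 FPKM (3.09 ± 0.337) in controls. The lowest inhibitor library was above the highest control library at both times, and the replicate numbers did not part. The log2 change was 1.18 ± 0.10 at 24 h (SE, adjusted p = 2.76e-08) and 1.14 ± 0.10 at 72 h (adjusted p = 2.22e-08). In SKNO-1 the changes were smaller, 0.43 ± 0.10 at 24 h (adjusted p = 0.00931) and 0.45 ± 0.10 at 72 h (adjusted p = 0.00445). There HERC5 was at 7.26, 9.03, 9.42 and 11.96 FPKM with the inhibitors at 24 h, against 7.98, 6.79, 5.58 and 6.45 FPKM in controls, so that 1 RN-1 library overlapped the controls. Its 72 h values were 10.8, 9.96, 9.94 and 12.4 FPKM with the inhibitors and 7.84, 8.14, 7.85 and 6.63 FPKM in controls, with no overlap. The SKNO-1 call at 24 h was lost without DMSO replicate 1 (adjusted p = 0.0557) or GSK690* replicate 2 (adjusted p = 0.0612).

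ISG15 itself passed in no set. Kasumi-1 libraries at 24 h held 4.92 and 14.0 FPKM with RN-1 and 4.42 and 12.3 FPKM with GSK690, against 5.80 and 11.9 FPKM with GSK690* and 4.19 and 8.35 FPKM with DMSO (change 0.15, adjusted p = 0.787). The 72 h range was 5.35 to 10.4 FPKM with the inhibitors and 6.11 to 7.52 FPKM in controls (change -0.02). In SKNO-1 it lay between 1.32 and 2.89 FPKM with the inhibitors and between 1.11 and 3.02 FPKM in controls over both times. HERC6, the relative of HERC5, had a log2 change of 0.30 in Kasumi-1 at 24 h (adjusted p = 0.287, and 0.0192 with the block), and USP18, the enzyme that removes ISG15 and damps the interferon receptor, one of 0.14 (adjusted p = 0.761).

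Of the nucleic acid sensors, IFI16, which binds DNA in nucleus and cytosol, rose in all 4 sets and was among the most abundant members. In SKNO-1 at 24 h it was at 65.4, 67.4, 82.4 and 80.9 FPKM with RN-1 and GSK690 (74.1 ± 8.86), against 52.1, 42.5, 40.2 and 38.6 FPKM with GSK690* and DMSO (43.4 ± 6.06). After 72 h the inhibitor libraries held 88.0, 84.9, 83.8 and 96.0 FPKM (88.2 ± 5.52), against 51.0, 62.9, 46.4 and 55.0 FPKM in controls (53.8 ± 6.9996). The groups did not overlap in any of the 4 sets. The changes were 0.76 ± 0.07 (adjusted p = 3.50e-07) and 0.71 ± 0.07 (adjusted p = 7.02e-07) in SKNO-1, and 0.36 ± 0.07 (adjusted p = 0.00149) and 0.41 ± 0.07 (adjusted p = 0.000299) in Kasumi-1. In Kasumi-1 the means were 118 ± 7.16 and 135 ± 3.37 FPKM with the inhibitors at 24 h and 72 h, against 91.2 ± 7.65 and 101 ± 2.13 FPKM in controls. Within the 24 h replicate 1 libraries alone the change was 0.34 and within replicate 2 alone 0.39, each on 4 libraries.

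DDX58 (RIG-I, the sensor of viral RNA ends) rose in Kasumi-1 at both times. At 24 h it was at 2.63 and 6.74 FPKM with RN-1 and 2.45 and 5.95 FPKM with GSK690, against 1.99 and 3.43 FPKM with GSK690* and 1.37 and 2.45 FPKM with DMSO (change 0.66 ± 0.21, adjusted p = 0.0284). After 72 h it held 3.76, 4.26, 3.99 and 4.09 FPKM with the inhibitors, against 1.79, 2.10, 1.95 and 2.09 FPKM in controls, with no overlap (0.75 ± 0.21, adjusted p = 0.0106). At 24 h its groups parted within each replicate number and overlapped between them. The change was 0.41 within replicate 1 alone and 0.91 within replicate 2 alone. DDX60, a helicase that assists it, rose in Kasumi-1 at 72 h, at 6.64, 6.51, 6.80 and 5.78 FPKM with the inhibitors against 3.08, 3.40, 3.29 and 2.81 FPKM in controls (0.84 ± 0.19, adjusted p = 0.00285). IFIH1 (MDA5, the sensor of long double-stranded RNA) passed in no set, and with the block in SKNO-1 at 24 h (change 0.37, adjusted p = 0.0102) and 72 h (0.42, adjusted p = 0.00404).

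Of the 4 IFIT genes, whose products hold viral RNA away from the ribosome, IFIT5 rose in Kasumi-1 at 72 h. It was at 1.18, 0.906, 1.21 and 1.35 FPKM with the inhibitors, against 0.204, 0.273, 0.235 and 0.155 FPKM in controls, a parting without overlap at a low level (0.83 ± 0.25, adjusted p = 0.0168). The call was lost without GSK690* replicate 1 (adjusted p = 0.0526) or GSK690 replicate 2 (adjusted p = 0.0523). IFIT1 was at 4.72 and 15.1 FPKM with RN-1 and 4.08 and 10.3 FPKM with GSK690 at 24 h, against 4.78 and 9.04 FPKM with GSK690* and 4.24 and 6.81 FPKM with DMSO (0.29, adjusted p = 0.471). The 72 h range was 2.62 to 3.85 FPKM with the inhibitors and 3.01 to 4.91 FPKM in controls (-0.13, adjusted p = 0.761). In SKNO-1 it did not exceed 1.402 FPKM. IFIT2 and IFIT3 passed in no set without the block.

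OAS1 was the only one of the 4 OAS genes to pass. In Kasumi-1 at 24 h it was at 5.29 and 17.2 FPKM with RN-1 and 3.40 and 14.9 FPKM with GSK690, against 1.93 and 7.37 FPKM with GSK690* and 1.25 and 4.06 FPKM with DMSO. After 72 h the values were 4.75, 3.85, 6.28 and 3.94 FPKM with the inhibitors, against 2.03, 1.46, 2.08 and 0.901 FPKM in controls. At 24 h the inhibitor libraries were above the controls within each replicate number, and at 72 h over all libraries. The changes were 1.21 ± 0.36 (adjusted p = 0.0198) and 1.13 ± 0.36 (adjusted p = 0.0236). Within replicates 1 and 2 of the 24 h set, with 1 library per agent, they were 1.03 and 1.39. The 72 h call was lost without RN-1 or GSK690 replicate 1, or without GSK690* or DMSO replicate 2, with adjusted p between 0.0629 and 0.0900. In SKNO-1 OAS1 stayed at or under 0.432 FPKM and OAS2 at or under 0.139 FPKM.

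The MX genes passed in no set. MX1 had a log2 change of 0.31 in Kasumi-1 at 24 h (adjusted p = 0.712), with -0.26 within replicate 1 and 0.89 within replicate 2. After 72 h its range was 0.567 to 0.813 FPKM with the inhibitors and 0.235 to 1.30 FPKM in controls (0.05). MX2, which acts on lentiviruses at the nuclear pore, had one of 0.50 at 24 h (adjusted p = 0.124, and 0.00525 with the block) and stayed at or under 0.861 FPKM in the other sets.

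Among the membrane restriction factors, BST2 (tetherin, which holds budding virus at the surface) rose in SKNO-1 at both times. At 24 h it was at 9.58, 5.14, 8.37 and 6.35 FPKM with RN-1 and GSK690, against 4.13, 3.62, 3.14 and 2.67 FPKM with GSK690* and DMSO. At the later time the values were 9.48, 11.9, 8.25 and 14.0 FPKM with the inhibitors, against 3.49, 6.45, 2.36 and 5.64 FPKM in controls. No inhibitor library fell into the control range at either time. The changes were 0.91 ± 0.22 (adjusted p = 0.0129) and 1.16 ± 0.22 (adjusted p = 0.00133). The 24 h call was lost without RN-1 replicate 1 (adjusted p = 0.105), GSK690 replicate 1 (0.0844), DMSO replicate 2 (0.0546) or GSK690* replicate 2 (0.0575); without the last of these the SKNO-1 24 h count fell to 1 member, IFI16. In Kasumi-1, where BST2 was far more abundant, it averaged 94.5 ± 20.3 FPKM with the inhibitors and 98.5 ± 14.2 FPKM in controls at 24 h (-0.07, adjusted p = 0.868).

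IFITM1, which hinders fusion of virus with the cell membrane, leaned the other way in SKNO-1. At 24 h it was at 53.1, 56.0, 41.3 and 64.0 FPKM with the inhibitors, against 66.8, 64.6, 74.0 and 73.6 FPKM in controls, all 4 inhibitor libraries being below the controls. After 72 h the values were 63.9, 81.0, 55.8 and 87.5 FPKM with the inhibitors, against 92.4, 105, 87.0 and 108 FPKM in controls, and 1 GSK690 library overlapped. The changes were -0.39 (adjusted p = 0.445, and 0.0223 with the block) and -0.46 (adjusted p = 0.327, and 0.00738 with the block). In SKNO-1 at 24 h, 4 members had all inhibitor libraries below all controls (IFITM1, ADAR, EIF2AK2 and PARP9), where 8.37% of genes did. IFITM2, IFITM3 and PLSCR1 passed in no set, nor did ADAR, the RNA editing enzyme, EIF2AK2 (PKR, the kinase that halts translation) or ISG20, an exonuclease; ISG20 passed in SKNO-1 at 72 h with the block (0.42, adjusted p = 0.0322).

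Viperin (RSAD2), which makes a chain-terminating nucleotide, and its neighbour CMPK2 passed in no set without the block. In SKNO-1 at 24 h RSAD2 was at 9.62, 7.57, 11.3 and 8.41 FPKM with the inhibitors, against 7.42, 5.39, 6.08 and 4.52 FPKM in controls, and at 72 h at 13.0, 7.43, 11.4 and 7.35 FPKM against 7.45, 5.12, 6.88 and 5.03 FPKM. Its change was 0.58 at each time, with adjusted p of 0.100 and 0.0897 without the block and 0.000131 and 9.92e-05 with it.

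Of the TRIM proteins, TRIM22, a ubiquitin ligase active against retroviruses, had the largest change on the log2(FPKM + 1) scale of all members in Kasumi-1 at 72 h. That scale compresses changes at low levels. Among the alternative fits the highest change in this set was 1.65 for TRIM22 and 1.996 for IFIT5, so the rank depends on the processing. At 24 h it was at 12.6 and 19.6 FPKM with RN-1 and 11.9 and 19.6 FPKM with GSK690, against 7.37 and 8.38 FPKM with GSK690* and 3.31 and 6.72 FPKM with DMSO. The 72 h values were 14.4, 18.8, 19.9 and 19.2 FPKM with the inhibitors (18.1 ± 2.45), against 6.62, 7.70, 5.44 and 4.66 FPKM in controls (6.10 ± 1.33). No libraries of the groups overlapped at either time. The changes were 1.21 ± 0.19 (adjusted p = 0.000101) and 1.43 ± 0.19 (adjusted p = 6.87e-06), and within replicates 1 and 2 of the 24 h set 1.14 and 1.28. In SKNO-1 its log2 changes were 0.35 and 0.48 (adjusted p = 0.251 and 0.0955, and 0.023 and 0.00271 with the block). TRIM5, which recognises retroviral capsids, was at 6.64, 9.17, 7.99 and 9.35 FPKM with the inhibitors in Kasumi-1 at 24 h, against 5.68, 6.16, 5.01 and 5.13 FPKM in controls (0.51 ± 0.10, adjusted p = 0.00113), and changed by 0.49 at 72 h (adjusted p = 0.00114). TRIM21, an antibody receptor in the cytosol, passed in no set.

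PARP14, a mono-ADP-ribosyltransferase, rose in 3 sets. In Kasumi-1 at 24 h it was at 12.1, 18.4, 10.1 and 16.5 FPKM with the inhibitors, against 7.45, 11.5, 5.36 and 8.97 FPKM in controls, parting within each replicate number but not between them (0.72 ± 0.19, adjusted p = 0.00951). By 72 h it held 13.0, 15.6, 18.6 and 17.4 FPKM with the inhibitors, against 9.24, 11.0, 7.34 and 8.54 FPKM in controls, with no overlap (0.77 ± 0.19, adjusted p = 0.00441). In SKNO-1 at 72 h it was at 6.97, 7.54, 7.46 and 9.56 FPKM with the inhibitors, against 3.70, 5.99, 4.08 and 6.13 FPKM in controls (0.59 ± 0.19, adjusted p = 0.0473). There the groups parted too, but the call was lost when any one of RN-1 or GSK690 (either replicate), GSK690* replicate 1 or DMSO replicate 1 was left out, with adjusted p between 0.0544 and 0.207. PARP9, its partner in several complexes, passed in no set.

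STAT2, the subunit of ISGF3 that carries its activation domain, rose modestly in Kasumi-1. The 24 h values were 34.1, 48.0, 35.1 and 40.2 FPKM with the inhibitors, against 29.8, 35.7, 23.4 and 29.4 FPKM in controls (0.40 ± 0.13, adjusted p = 0.0367). The 72 h values were 35.7, 45.6, 40.4 and 49.8 FPKM with the inhibitors, against 30.6, 33.9, 27.4 and 30.4 FPKM in controls (0.47, adjusted p = 0.0134). The 24 h groups overlapped by 1 control library and the 72 h groups did not. The 72 h call was lost without RN-1 or GSK690 replicate 2, or without GSK690* or DMSO replicate 1, with adjusted p between 0.0556 and 0.0729. In SKNO-1 the changes were 0.18 and 0.29 (adjusted p = 0.446 and 0.173, and 0.0366 and 0.00158 with the block).

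The calls of OAS1, PARP14, DDX58 and STAT2 in Kasumi-1 at 24 h were each lost when DMSO or GSK690* replicate 1, or RN-1 or GSK690 replicate 2, was left out, with adjusted p between 0.0680 and 0.214. The count of members then was 4, against 20 without RN-1 replicate 1 and 18 without GSK690 replicate 1. The share of all genes passing in these refits is not given here, so the counts cannot be read as a trait of the members. Within replicates 1 and 2 the changes were 1.18 and 1.17 for HERC5, 1.14 and 1.28 for TRIM22, and 1.03 and 1.39 for OAS1. Within replicate 1 the median change of the 42 members was 0.03 and 26 were above 0; within replicate 2 the median was 0.56 and 40 were above 0. Inhibitor libraries lay above controls in 14 members within replicate 1 (26.0% of genes) and in 35 within replicate 2 (29.3% of genes). Over all 8 libraries they did so in 4 members, HERC5, IFI16, TRIM22 and TRIM5 (14.4% of genes). In Kasumi-1 at 72 h this count was 18 (15.6% of genes), in SKNO-1 at 24 h 11 (6.8%) and in SKNO-1 at 72 h 9 (8.57%).

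**Figure D3:**
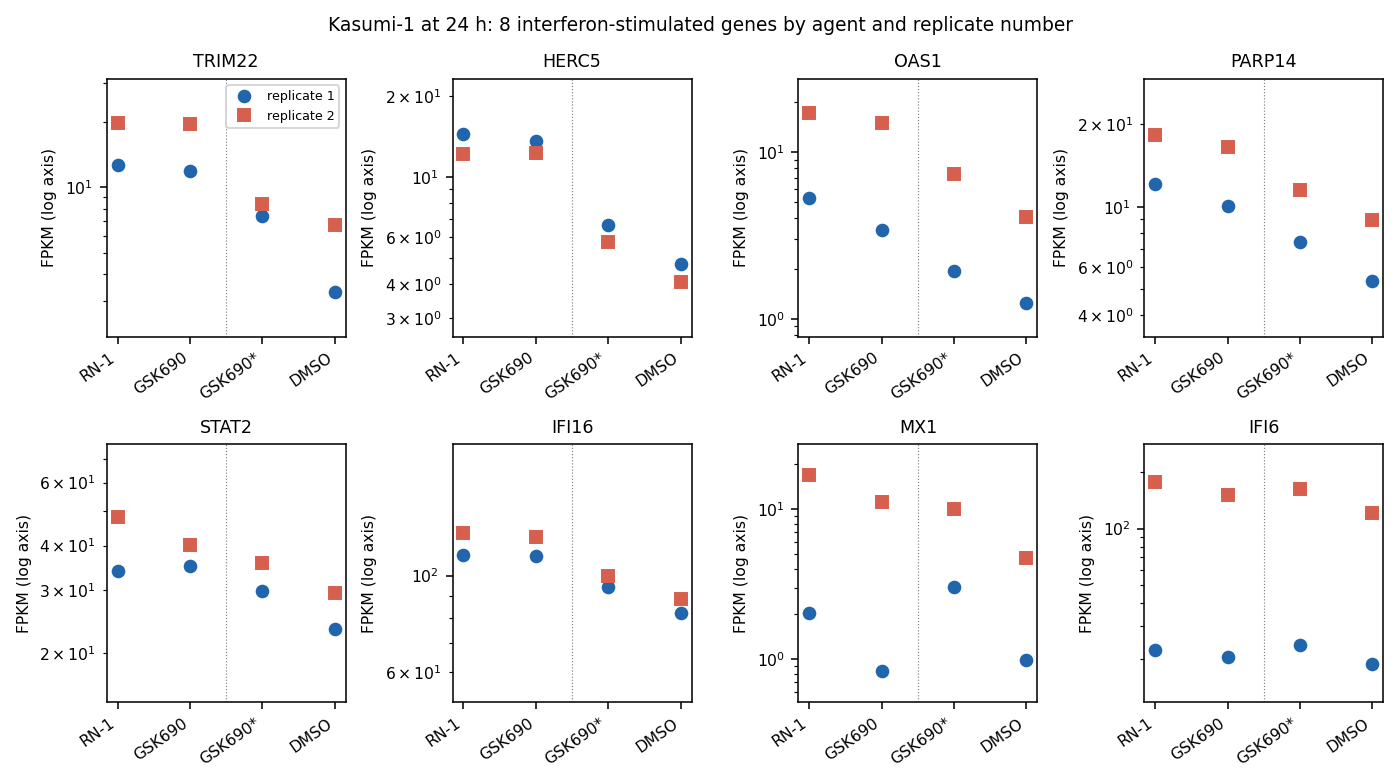
FPKM (log axis) of 8 interferon-stimulated genes in Kasumi-1 at 24 h by agent, with circles for replicate 1 and squares for replicate 2, 1 library each. HERC5, TRIM22 and IFI16 are higher with RN-1 and GSK690 in both replicates, while IFI6 lies between 18.8 and 23.8 FPKM in replicate 1 and between 122 and 177 FPKM in replicate 2.

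The remaining members that rose were SP110 and IFI35 in Kasumi-1 at 72 h. SP110, a nuclear body protein, was at 5.48, 5.97, 4.96 and 5.28 FPKM with the inhibitors, against 3.33, 2.59, 3.14 and 2.68 FPKM in controls (0.71 ± 0.18, adjusted p = 0.00545). IFI35 was at 20.5, 14.8, 15.4 and 12.6 FPKM with the inhibitors, against 9.94, 11.4, 10.2 and 8.67 FPKM in controls (0.59 ± 0.19, adjusted p = 0.0228). Neither gene's groups overlapped. The IFI35 call was lost without RN-1, GSK690 or GSK690* replicate 1 or DMSO replicate 2, with adjusted p between 0.0698 and 0.0958. IFI6 had a log2 change of 0.12 at 24 h (adjusted p = 0.931) and 0.17 at 72 h (adjusted p = 0.884). IFI44, IFI44L, SAMD9, SAMD9L and XAF1 passed in no set without the block. With it SAMD9, SAMD9L and XAF1 passed in Kasumi-1 at 24 h and XAF1 in SKNO-1 at both times, while IFI44 and IFI44L passed nowhere. IFI44L was listed at 0 in all 8 SKNO-1 libraries at 72 h.

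**Figure D4:**
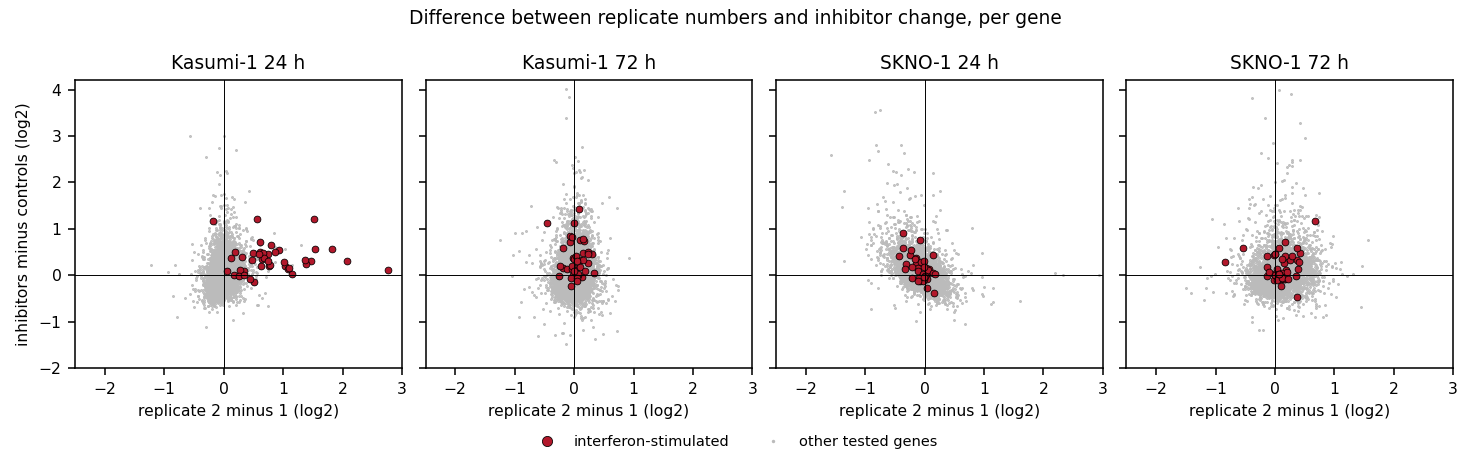
For each tested gene, the difference between replicate numbers (replicate 2 minus replicate 1, log2, horizontal) and the inhibitor change (RN-1 and GSK690 minus GSK690* and DMSO, log2, vertical) in the 4 sets, with the 42 interferon-stimulated genes in red and other genes in grey. In Kasumi-1 at 24 h the red points reach 2.77 on the horizontal axis, while in the other panels they stay between -0.83 and 0.68.

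The agents were also compared singly at 1 µM, 2 libraries against 2, in 4 pairings and each set, with p-values adjusted over all genes of a comparison. RN-1 against DMSO gave 7 higher members in Kasumi-1 at 24 h (5.47% of genes higher, 3.61% lower), 7 at 72 h (7.44% and 4.61%), 1 in SKNO-1 at 24 h (1.82% and 0.429%) and 2 at 72 h (2.94% and 0.53%), and 0 lower members. The 3 largest log2(FPKM + 1) changes in Kasumi-1 at 24 h were those of OAS1 (1.66 ± 0.51, adjusted p = 0.0420), TRIM22 (1.54 ± 0.26, adjusted p = 0.000684) and HERC5 (1.397 ± 0.14, adjusted p = 8.47e-07). The OAS1 call was lost without DMSO replicate 1 or RN-1 replicate 2 (adjusted p = 0.438 and 0.471). Most other calls of this pairing were also lost when some single library was left out. In Kasumi-1 at 24 h these were IFI16, PARP14, STAT2 and TRIM5 (adjusted p between 0.0620 and 0.451). At 72 h they were DDX60, IFI16, IFI35, SP110 and TRIM5 (between 0.0509 and 0.300). In SKNO-1 at 72 h it was BST2 (between 0.0602 and 0.414). IFI16 passed in both SKNO-1 sets (0.74 and 0.76). The counts of the 4 sets came to 17, and to 28 without Kasumi-1 RN-1 replicate 1 at 24 h. With the block, 26 members were higher in Kasumi-1 at 24 h (9.84% of genes), 5 in SKNO-1 at 24 h (4.65%) and 9 at 72 h (6.29%).

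GSK690 and GSK690* are isomers, the second of which the study uses as the inactive control. GSK690 against GSK690* gave 1 higher member in Kasumi-1 at 24 h (HERC5, 0.96 ± 0.14, adjusted p = 0.000268; 2.52% of genes higher, 3.94% in either direction). At 72 h it gave 4 (6.02% higher, 9.75% in either direction): HERC5 (1.09 ± 0.14), TRIM22 (1.33 ± 0.26), TRIM5 (0.51 ± 0.14) and IFI16 (0.38 ± 0.10). The TRIM5 and IFI16 calls were lost without any one of the 4 libraries (adjusted p between 0.0650 and 0.209). In SKNO-1 it gave IFI16 alone at 24 h (0.78 ± 0.10, adjusted p = 9.31e-05; 1.52% higher, 1.63% in either direction) and at 72 h (0.65 ± 0.10, adjusted p = 0.000509; 2.53% higher, 2.83% in either direction). With the block these counts were 6 in Kasumi-1 at 24 h (5.9% of genes), 7 in SKNO-1 at 24 h (4.37%) and 10 at 72 h (5.79%).

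Between GSK690* and DMSO 0 members passed in any set by limma, with or without the block, as did 0.0% of genes without it. At an unadjusted p under 0.05 and without the block there were 2 members in Kasumi-1 at 24 h, HERC5 (0.41, 95% interval 0.11 to 0.70) and TRIM22 (0.62, 0.07 to 1.16), and 1 in SKNO-1 at 24 h, IFI16 (0.25, 0.03 to 0.47). With the block 20 members were at an unadjusted p under 0.05 in Kasumi-1 at 24 h, all higher with GSK690*, where 692 of 11889 genes were; the other sets had 2, 1 and 2. The Kasumi-1 libraries at 24 h had GSK690* above DMSO in both replicates for 36 of 42 members, against 29.3% of genes, and the median difference of the members was 0.29. The same held for 9 members in Kasumi-1 at 72 h (18.9% of genes), 15 in SKNO-1 at 24 h (24.9%) and 12 in SKNO-1 at 72 h (18.2%).

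Between RN-1 and GSK690 0 members passed in any set by limma, with or without the block, where at most 0.00841% of genes did without it. At an unadjusted p under 0.05 and without the block there were 2, both in SKNO-1 at 24 h and both lower with RN-1: HERC5 (-0.35, 95% interval -0.64 to -0.06) and IFI16 (-0.29, -0.51 to -0.08). With the block 5 members were at that level in Kasumi-1 at 24 h, all higher with RN-1, where 190 of 11888 genes were, and the other sets had 1, 2 and 1. For HERC5 in Kasumi-1 the interval ran from -0.26 to 0.32 at 24 h and from -0.26 to 0.33 at 72 h, and for MX1 at 24 h from -0.77 to 2.08. Differences inside these intervals could not be told from 0 with 2 libraries a group.

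The inhibitor change was compared between the lines by an interaction term. HERC5 changed more in Kasumi-1 than in SKNO-1, by 0.75 ± 0.14 at 24 h (adjusted p = 0.00579) and by 0.68 ± 0.14 at 72 h (adjusted p = 0.00555). TRIM22 did so at 72 h, by 0.95 ± 0.26 (adjusted p = 0.0467), a call that was lost when any one of 12 of the 16 libraries at 72 h was left out (adjusted p between 0.0533 and 0.118; the exceptions were Kasumi-1 RN-1 replicate 1, and SKNO-1 RN-1 replicate 2, GSK690* replicate 1 and DMSO replicate 1). These are 1 of 42 members at 24 h, where 0.732% of genes had a larger change in Kasumi-1 and 1.12% differed, and 2 of 42 at 72 h, where 2.31% and 3.47% did. BST2 (-0.98 and -0.97, adjusted p = 0.178 and 0.104) and IFI16 (-0.40 and -0.30, adjusted p = 0.0741 and 0.140) ran the other way and passed with the block (adjusted p = 0.00101 and 0.000441 for BST2, 0.00653 and 0.0251 for IFI16). With the block the difference passed for 13 combinations of member and time, 9 larger and 4 smaller in Kasumi-1. At 24 h these were 3 larger and 2 smaller, where 266 and 255 of 11885 genes were. At 72 h they were 6 and 2, where 579 and 428 of 11886 genes were. The 72 h block values take in Kasumi-1 at 72 h, whose replicate numbers gave no pairing by the rule used. OAS1 differed by 1.08 at 24 h and 1.01 at 72 h (adjusted p = 0.479 and 0.361, and 0.000221 and 0.000185 with the block). It lay under 1 FPKM in every SKNO-1 library, where the log2(FPKM + 1) scale registers little change. The OAS1 values therefore cannot tell a response of 1 line from the low level in SKNO-1. HERC5 control levels also differed between the lines, so these are differences of ratios on a log scale. For the difference of the inhibitor change between 72 h and 24 h, 0 members passed in either line by limma, with or without the block, and 0 at an unadjusted p under 0.05 without it, where 0.202% of genes passed in Kasumi-1 and 0.0% in SKNO-1.

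The levels of the members in controls were compared between the lines. Over the 4 control libraries of each line, 21 of 42 members were higher in Kasumi-1 and 8 lower at 24 h, where 30.9% and 38.2% of genes were (69.1% in all), and 18 higher and 10 lower at 72 h, where 32.6% and 38.2% were (70.8% in all). The share of members that differed in either direction, 69.0% at 24 h and 66.7% at 72 h, was thus near that of all genes. BST2 averaged 98.5 ± 14.2 FPKM in Kasumi-1 and 3.39 ± 0.627 FPKM in SKNO-1 at 24 h (log2 difference 4.50 ± 0.22, adjusted p = 6.41e-14), and 92.7 ± 5.84 and 4.48 ± 1.89 FPKM at 72 h. IFITM3, an endosomal block to virus entry, averaged 95.4 ± 14.9 FPKM in Kasumi-1 and 5.42 ± 0.309 FPKM in SKNO-1 at 24 h (3.90 ± 0.15, adjusted p = 9.48e-16), and 113 ± 7.74 and 9.51 ± 2.52 FPKM at 72 h. Of the 42 members these were the furthest apart between the lines on the log2(FPKM + 1) scale.

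OAS2 averaged 4.88 ± 3.298 FPKM in Kasumi-1 and 0.0551 ± 0.0249 FPKM in SKNO-1 at 24 h (2.30 ± 0.42) and 2.21 ± 0.695 and 0.0657 ± 0.0445 FPKM at 72 h (1.57 ± 0.42). OAS1, OAS3, IFIT1, IFIT2, IFIT3, ISG15, IFI35, DDX60, TRIM21 and IFI16 were also higher in Kasumi-1 at both times. IFIT1 averaged 6.22 ± 2.18 FPKM in Kasumi-1 and 0.866 ± 0.0698 FPKM in SKNO-1 at 24 h (1.90 ± 0.26), and ISG15 7.56 ± 3.37 and 1.47 ± 0.296 FPKM (1.72 ± 0.29). IFI6 and MX1 were higher in Kasumi-1 at 24 h (2.32 ± 0.62 and 1.72 ± 0.48, adjusted p = 0.00221 and 0.0034) and not at 72 h. At 24 h IFI6 averaged 81.6 ± 71.6 FPKM in Kasumi-1 controls, the replicate 2 libraries being the high ones, and 10.3 ± 1.17 FPKM in SKNO-1 controls, and at 72 h 18.0 ± 2.33 and 15.1 ± 3.63 FPKM.

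Other members were lower in Kasumi-1. CMPK2, a mitochondrial nucleotide kinase, averaged 2.77 ± 0.903 FPKM in Kasumi-1 and 20.2 ± 3.69 FPKM in SKNO-1 at 24 h (-2.502 ± 0.26, adjusted p = 2.01e-08), and 2.76 ± 0.354 and 22.1 ± 6.11 FPKM at 72 h. Its neighbour RSAD2 averaged 2.22 ± 0.617 and 5.85 ± 1.23 FPKM at 24 h (-1.09 ± 0.22). IFIT5 averaged 0.658 ± 0.403 FPKM in Kasumi-1 and 6.12 ± 0.673 FPKM in SKNO-1 at 24 h (-2.13 ± 0.25), and 0.217 ± 0.0501 and 7.13 ± 1.42 FPKM at 72 h (-2.73 ± 0.25). IFIT5 was thus lower in Kasumi-1 where IFIT1, IFIT2 and IFIT3 were higher. IFITM1 averaged 35.2 ± 6.51 and 98.3 ± 10.2 FPKM at 72 h (-1.47 ± 0.29), the reverse of IFITM2 and IFITM3. HERC5 (-0.30 and -1.07), TRIM22 (-0.75 and -0.77), SAMD9 (-0.66 and -0.63) and ISG20 (-0.43 and -0.87) were lower in Kasumi-1 at both times, and SP110 (-0.44) and PLSCR1 (-0.37) at 72 h. The 24 h calls of HERC5 and ISG20 and the 72 h call of SP110 were lost without single control libraries. For HERC5 these were replicate 2 of either control in Kasumi-1, and DMSO replicate 2 or GSK690* replicate 1 in SKNO-1 (adjusted p between 0.0549 and 0.0592), for ISG20 replicate 1 of either control in either line (between 0.0656 and 0.144), and for SP110 replicate 2 of either control in either line or GSK690* replicate 1 in SKNO-1 (between 0.0560 and 0.112). Of the 3 members with the largest log2(FPKM + 1) changes in Kasumi-1, HERC5 and TRIM22 were thus lower in its controls than in those of SKNO-1. OAS1 was higher (1.86 and 1.20). The 24 h comparison takes in Kasumi-1 controls of both replicate numbers, which stood apart in most of these genes.

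**Figure D5:**
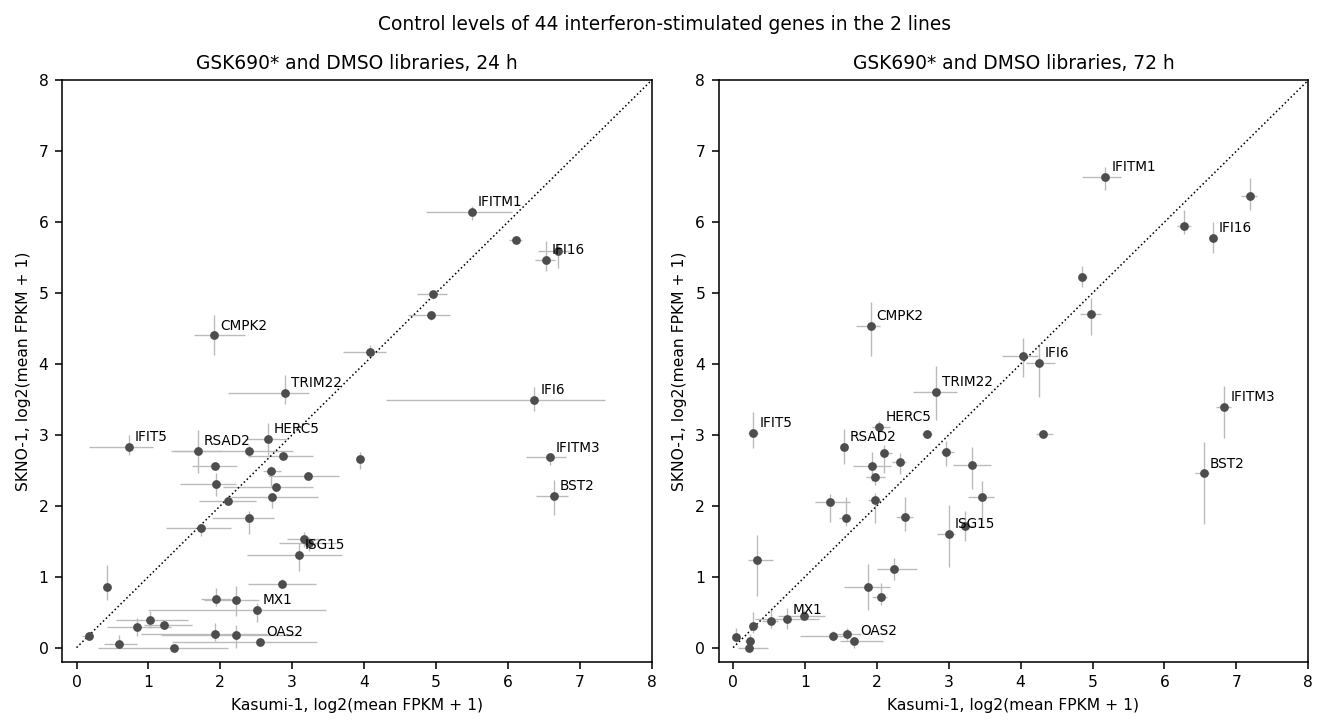
Mean level of each interferon-stimulated gene in the 4 control libraries (GSK690* and DMSO) of Kasumi-1 (horizontal) and SKNO-1 (vertical), as log2(mean FPKM + 1), at 24 h and 72 h; bars run from the lowest to the highest library and the dotted line marks equal levels. BST2 and IFITM3 lie far below the line, CMPK2, IFIT5 and IFITM1 above it.

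The genes around the family were read from lists of the pathway. Of 21 interferon genes, 10 were listed at 0 in all 32 libraries and none exceeded 0.144 FPKM, so none was tested. Of 5 interferon receptor subunits tested, 2 were higher with the inhibitors in Kasumi-1 at 24 h (4 with the block), 5 at 72 h, and 1 in SKNO-1 at each time (2 with the block). IFNGR1, a subunit of the interferon gamma receptor, averaged 22.8 ± 1.05 FPKM with the inhibitors and 16.8 ± 1.66 FPKM in controls in Kasumi-1 at 24 h (0.42 ± 0.07, adjusted p = 0.000215). IFNGR2 was the SKNO-1 one (0.36 and 0.39). Of 5 receptor kinases and STATs, JAK1 was higher in Kasumi-1 at 24 h (0.23), at 72 h (0.31) and in SKNO-1 at 72 h (0.31).

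IRF9 was at 10.8 and 26.6 FPKM with RN-1 and 7.83 and 20.4 FPKM with GSK690 in Kasumi-1 at 24 h, against 9.40 and 19.4 FPKM with GSK690* and 7.59 and 17.4 FPKM with DMSO. Its log2 changes were 0.22, 0.44, 0.05 and 0.11 (adjusted p = 0.654, 0.267, 0.943 and 0.864), and passed in Kasumi-1 at 24 h with the block.

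Of 7 interferon regulatory factors tested, 2, 3, 1 and 1 were higher with the inhibitors in the 4 sets, in the order Kasumi-1 24 h and 72 h, SKNO-1 24 h and 72 h, and 4 and 2 with the block in Kasumi-1 at 24 h and SKNO-1 at 72 h. IRF1, a factor that binds many of the same promoters, rose in each. It averaged 31.8 ± 3.73 FPKM with the inhibitors and 17.2 ± 2.10 FPKM in controls in Kasumi-1 at 24 h (0.85 ± 0.14, adjusted p = 0.000183), and 70.5 ± 3.81 and 31.2 ± 4.31 FPKM at 72 h (1.16 ± 0.14, adjusted p = 2.05e-06). In SKNO-1 it changed by 0.59 at 24 h (adjusted p = 0.00931) and 0.64 at 72 h. IRF8 rose in Kasumi-1 (0.43 and 0.83), and IRF7, the factor that amplifies interferon production, in Kasumi-1 at 72 h (0.96 ± 0.35, adjusted p = 0.0461). Of 12 further sensing genes, TLR3 rose in Kasumi-1 (0.75 and 1.03), MYD88 in SKNO-1 (0.44 and 0.42), SAMHD1 in SKNO-1 at 72 h (0.25), and TRAF3 fell in Kasumi-1 at 72 h (-0.37). Of 7 pathway inhibitors, SOCS3 rose in Kasumi-1 (0.30 and 0.25) and PTPN6 fell in SKNO-1 at 72 h (-0.37).

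Of 17 genes shared with or led by interferon gamma, 5, 10, 5 and 7 were higher and 0 lower in the same order of sets, and with the block 8 higher and 1 lower in Kasumi-1 at 24 h. GBP2, a guanylate-binding protein, averaged 1.41 ± 0.22 FPKM with the inhibitors and 0.179 ± 0.0431 FPKM in controls in Kasumi-1 at 24 h (1.03 ± 0.11, adjusted p = 8.46e-07), and 12.2 ± 1.11 and 5.08 ± 1.07 FPKM in SKNO-1 at 72 h (1.13 ± 0.11, adjusted p = 2.21e-07). PSMB9, an immunoproteasome subunit, changed by 0.81 and 1.45 in Kasumi-1 and by 0.61 in SKNO-1 at 72 h, and ICAM1, an adhesion molecule, by 1.06 and 1.07 in SKNO-1. Of 26 other interferon-stimulated genes, 4, 9, 3 and 4 were higher and 0, 1, 0 and 0 lower; with the block 7 and 1 in Kasumi-1 at 24 h, 6 and 2 in SKNO-1 at 24 h and 8 and 1 at 72 h. TRIM34, which lies beside TRIM5 and TRIM22, averaged 4.52 ± 0.971 FPKM with the inhibitors and 0.944 ± 0.442 FPKM in controls in Kasumi-1 at 24 h (1.52 ± 0.12, adjusted p = 1.95e-08). TNFSF10 (TRAIL, a death receptor ligand) changed by 0.97, 1.68, 0.90 and 1.29, and LGALS3BP by 1.02 and 1.399 in SKNO-1. TRIM14 fell in Kasumi-1 at 72 h (-0.58). All these lists share libraries with the comparison of the members.

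Markers of maturing myeloid cells moved with the inhibitors in the same libraries. Of 10 tested, 7, 7, 8 and 8 were higher and 0 lower. Their summed level was 245 to 297 FPKM with the inhibitors and 80.5 to 121 FPKM in controls in Kasumi-1 at 24 h, and 182 to 243 and 76.7 to 99.2 FPKM at 72 h. In SKNO-1 it was 164 to 241 and 77.6 to 116 FPKM at 24 h, and 226 to 271 and 99.1 to 126 FPKM at 72 h. LYZ, the lysozyme gene, averaged 122 ± 25.7 FPKM with the inhibitors and 15.4 ± 8.40 FPKM in controls in Kasumi-1 at 24 h. Their part in the changes of the interferon-stimulated genes was not tested. Between replicates 1 and 2 of Kasumi-1 at 24 h, 0 of these 10 markers were higher and 1, LYZ, was lower.

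The progenitor and t(8;21) leukaemia list (CD34, KIT, MPO, RUNX1T1 and others) was high in every library. It summed to 3183 to 8388 FPKM with the inhibitors and 3038 to 8121 FPKM in controls of Kasumi-1 over both times, and to 1400 to 3181 and 1837 to 2938 FPKM in SKNO-1. Within this list of 8, CD34 rose with the inhibitors in all 4 sets (0.73, 1.41, 1.02 and 1.53), KIT fell in both Kasumi-1 sets and in SKNO-1 at 24 h (-0.38, -0.52 and -0.36), and PRTN3 fell in Kasumi-1 at 72 h (-1.28). Markers of T and NK cells stayed at or under 3.16 FPKM, with 6 of 8 under 1 FPKM in every library and KLRD1 at 0 throughout; CD8A and NKG7 rose with the inhibitors in Kasumi-1 at 72 h and CD8A in SKNO-1 at 72 h. In Kasumi-1 their sum was 2.70 to 3.68 FPKM with the inhibitors and 1.91 to 2.65 FPKM in controls at 24 h. After 72 h it was 3.86 to 4.76 and 1.63 to 3.03 FPKM, and the groups overlapped at neither time. In SKNO-1 it was 0.951 to 1.74 and 0.852 to 1.14 FPKM at 24 h, and 1.18 to 1.96 and 0.533 to 1.25 FPKM at 72 h. Of 7 markers of plasmacytoid dendritic cells, which make much interferon in blood, 4 were under 1 FPKM in every library, the defining marker CLEC4C was at 0 throughout, and the highest value was 29.0 FPKM, for IRF7. In Kasumi-1 their sum was 11.8 to 32.3 FPKM with the inhibitors and 8.61 to 21.1 FPKM in controls at 24 h. After 72 h it was 16.9 to 21.6 and 7.70 to 13.5 FPKM, without overlap. In SKNO-1 it was 3.11 to 6.54 and 2.80 to 4.03 FPKM at 24 h, and 5.31 to 6.52 and 2.91 to 5.28 FPKM at 72 h. Of 5 B cell markers MS4A1 was at 0 throughout and CD79B reached 61.1 FPKM. CD79B rose in Kasumi-1 at both times (0.38 and 0.45) and CD79A at 72 h (0.47). In Kasumi-1 the list summed to 11.3 to 12.1 FPKM with the inhibitors and 7.70 to 10.6 FPKM in controls at 24 h. After 72 h it summed to 9.42 to 13.4 and 7.37 to 8.51 FPKM, and the groups overlapped at neither time. In SKNO-1 it summed to 36.8 to 47.5 and 35.8 to 41.7 FPKM at 24 h, and to 49.1 to 54.2 and 46.9 to 63.7 FPKM at 72 h. Of 8 markers of adherent cells 6 were under 1 FPKM in every library. The other two were EPCAM, at 72.1 ± 5.62 FPKM with the inhibitors and 72.9 ± 8.58 FPKM in controls of Kasumi-1 at 24 h, and VIM, which rose in every set and averaged 94.9 ± 16.8 and 40.7 ± 8.46 FPKM in SKNO-1 at 24 h. The part of these lists in the changes of the interferon-stimulated genes was not tested.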

How the data were processed

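RNA was sequenced from 32 libraries, and 1 table of FPKM per gene was used. The authors made these FPKM values with TopHat 1.4.1 and Cufflinks on build hg19, per the submitters' processing notes; whether counting used strand, and the read depth, are not given in the sources used here. All library columns were matched to samples by their labels (0 left unmatched), and groups follow the titles. Values were taken as log2(FPKM + 1). Of 23073 genes, the 11890 that reached 1 FPKM in 2 or more libraries entered limma (3.58.1, R 4.3.3; trend, 16 group means, all 32 libraries), with 2-sided p-values adjusted by Benjamini-Hochberg over all genes of a contrast and a threshold of 0.05. Summaries used Python 3.11.15 with pandas 2.3.3. The steps were tested on simulated data. Alternatives were the pseudocount, the filter, the normalization, the libraries fitted, the make-up of the controls, each library left out and a replicate block. For SKNO-1 at 72 h a term for the first letters of the library names was a further one. Same-numbered libraries were taken as paired where every correlation of their deviations from the group means, over the 6 agent pairs of a set, was over 0.1: Kasumi-1 at 24 h (0.133 to 0.450), SKNO-1 at 24 h (0.294 to 0.525) and SKNO-1 at 72 h (0.145 to 0.697), but not Kasumi-1 at 72 h (0.0432 to 0.481). The numbers come from the titles, which do not say what they mark. Library names begin with SL at 24 h and with CM or CP at 72 h, so these letters and time cannot be told apart. In SKNO-1 at 72 h, DMSO and RN-1 replicate 1 begin with CM and the other libraries with CP. There GSK690* against DMSO and RN-1 against GSK690 are unbalanced in these letters, whose meaning is not stated. The members, gene lists and tests were chosen with earlier results of these data known. Named were members that passed in a set (at most 8 per set by size of change) or between lines (at most 6 each way), at most 3 per agent pair, and up to 3 genes of each list per set, besides STAT2, IRF9, ISG15, IFIT1, MX1 and KDM1A; some genes that were analysed are not reported here. Comparisons of the replicate numbers, and fits to 1 replicate number alone, were chosen after seeing the data. Such fits leave 1 library per agent in that set, so no p-values are given for them.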

Additional observations from a re-analysis of the deposited data

Results flagged for a closer look

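The inhibitor change of HERC5 differed between the lines by a test of the difference itself, at 24 h by 0.752578 (limma adjusted p = 0.00579) and at 72 h by 0.68475 (adjusted p = 0.00555) on the log2(FPKM + 1) scale, Kasumi-1 minus SKNO-1. That of TRIM22 differed at 72 h by 0.948889 (adjusted p = 0.0467), and missed the threshold when any one of 12 libraries was left out. In each case the inhibitor libraries of Kasumi-1 showed the larger change. Groups of 4 libraries were also searched for a single library far from the others. Of 46 groups tested 0 had one, where chance alone gives about 1 in 20. These were the inhibitor and control groups of the 23 named changes that had passed, which favours genes with little spread within groups. The 0 therefore cannot be set against that rate. A split by replicate number, as in Kasumi-1 at 24 h, would also not show as a single far library. No conclusion on deviating libraries is drawn from this search.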

How the results depend on the processing

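Of 365 alternative values for the 23 named changes that passed, 304 kept their side of the threshold, 61 missed it and 0 turned direction. Members that had not passed did turn: with replicate 1 of Kasumi-1 at 24 h alone, 26 of the 42 were above 0 (39 over all libraries), and MX1 (-0.26), IFI44L (-0.19), IFI44 (-0.14) and OAS3 (-0.07) were below it. The block fit held a replicate term for each of the 4 sets, the unpaired Kasumi-1 72 h set included. In the sets whose numbers pair the libraries, the members passing in it numbered 21 in Kasumi-1 at 24 h (8 without it), 12 in SKNO-1 at 24 h (3) and 16 in SKNO-1 at 72 h (4). Over all 4 sets of the same fit, they numbered 57 for RN-1 against DMSO (17 without it) and 39 for GSK690 against GSK690* (7). For the difference between lines they numbered 13 (3). Kasumi-1 at 72 h gave 17 of the 57, where 1449 of 11888 genes were higher. It gave 16 of the 39, where 1242 of 11889 genes were higher. In Kasumi-1 at 72 h, where the numbers gave no pairing by the rule used, the block gave 19 (12 without it), adding SAMD9, SAMD9L, RSAD2, IFIT3, IFIT2, XAF1 and OAS2. With only the libraries of a contrast in the fit, the counts were 4 in Kasumi-1 at 24 h, 1 in SKNO-1 at 24 h, 9 for RN-1 against DMSO and 6 for the difference between lines; the BST2 and HERC5 calls in both SKNO-1 sets were then lost. Without a filter on low values RN-1 against DMSO gave 11, and with GSK690* left out of the controls the difference between lines gave 1. For fits to fewer libraries, here and below, the share of all genes passing in the same fit is not given. Leaving out 1 library at a time gave 4 to 20 in Kasumi-1 at 24 h, 9 to 12 in Kasumi-1 at 72 h, 1 to 4 in SKNO-1 at 24 h, 3 to 6 in SKNO-1 at 72 h, 12 to 28 for RN-1 against DMSO, 5 to 8 for GSK690 against GSK690* and 2 to 4 for the difference between lines. Apart from the replicate numbers and the smaller number of libraries fitted, the cause was not tested. With 2 libraries a group and no counts, small changes of genes at low FPKM cannot be judged.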

Other observations

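Genes outside the interferon response also differed between the replicate numbers of Kasumi-1 at 24 h, as picked after their values were seen. The sterol and lipid synthesis genes INSIG1 (0.70), SCD (0.57) and HMGCS1 (0.56) were higher in replicate 2, on the log2(FPKM + 1) scale. Of 10 genes of the microRNA and silencing machinery, DGCR8 and DROSHA, which cut microRNA precursors in the nucleus, fell with the inhibitors in Kasumi-1 at both times, AGO2 fell at 72 h (-0.51), and in SKNO-1 DROSHA alone fell, at 24 h. Of the KDM1A complex genes, GFI1 rose with the inhibitors in all 4 sets and GFI1B in both SKNO-1 sets, HDAC1 fell in Kasumi-1 at 24 h and in SKNO-1 at both times, and HDAC2 fell in Kasumi-1 at 24 h.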
